A study of Mus musculus with 2 samples.

Results

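The genes examined here were 10 markers and regulators of the primitive streak and early mesoderm: the ligands Wnt3 and Fgf8, the receptor Kdr, the T-box factors T and Tbx6, the homeobox factors Mixl1, Gsc and Evx1, the basic helix-loop-helix factor Mesp1 and the forkhead factor Foxf1. They were chosen by name, and a probe was assigned to a gene when its RefSeq accession mapped to that symbol. All 10 genes were found, with 14 probes, among the 20823 genes on the array that could be named in this way. Expression was compared between Baf53a- and Baf53b-expressing Baf53a-deficient mouse ES cells, with 1 array per condition. Both conditions came from the same Baf53a cKO line, a single CRISPR/Cas9 clone of E14tg2a ES cells in which both alleles of Baf53a are mutated and a Tet-repressed transgene supplies a Cas9-resistant Baf53a. These cells were transfected with a vector for Myc-tagged Baf53a or for Myc-tagged Baf53b, and Tet was added at 1 μg/mL after 48 h and kept for 6 days, so that the transgene was shut off in both. The medium was DMEM with LIF, which keeps ES cells undifferentiated. Neither untransfected nor Tet-free cells were on the arrays, so the comparison is of the 2 rescued populations with each other.

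The primitive streak is the site of the gastrulating embryo where epiblast cells leave the epithelium and become mesoderm or definitive endoderm. Wnt3 and Nodal signals switch on T (Brachyury), Mixl1 and Evx1 there, and Mesp1, Tbx6, Foxf1 and Kdr mark the mesoderm that comes out of it. Undifferentiated ES cells in LIF hold most of these genes low, and their rise is a usual sign that a culture has begun to differentiate towards mesoderm. BAF complexes, of which Baf53a and its neuronal homologue Baf53b are subunits, remodel nucleosomes at genes of both states.

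T and Mesp1 are known for their response to Wnt signals, and their proximal promoters are shown here because they were the members whose sequence held the core of the TCF and LEF site. RefSeq promoter sequences of build GRCm38.p6 were matched for 7 of the 10 genes, those of Kdr, Evx1, Mesp1, Tbx6, Wnt3, Gsc and T. In the 250 bases before the start site, CTTTGA was searched on both strands, so that TCAAAG counts as well. It was present in 2 of the 7 member promoters and in 13.8% of 32851 promoters of the table. The T promoter (chr17:8434173-8434422, plus strand) held it once, 234 to 229 bases before the start site. The Mesp1 promoter (chr7:79793591-79793840, minus strand) held it at 72 to 67 and at 31 to 26 bases before the start site. Both are printed 5′ to 3′ on the strand of the gene, with the matches in capitals.
T: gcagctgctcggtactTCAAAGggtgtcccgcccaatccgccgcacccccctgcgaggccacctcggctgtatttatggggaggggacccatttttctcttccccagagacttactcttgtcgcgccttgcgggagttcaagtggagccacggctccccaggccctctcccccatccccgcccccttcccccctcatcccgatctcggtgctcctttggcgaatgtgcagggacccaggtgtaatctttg
Mesp1: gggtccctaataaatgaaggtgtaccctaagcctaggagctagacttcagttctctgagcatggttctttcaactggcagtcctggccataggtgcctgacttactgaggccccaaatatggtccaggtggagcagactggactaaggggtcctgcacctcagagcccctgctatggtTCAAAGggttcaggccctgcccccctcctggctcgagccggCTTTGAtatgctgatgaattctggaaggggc
The T-box half-site AGGTGTGA, the Gsc-type site TAATCC and the Foxh1 site AATCCACA were found in 0 of the 7, against 1.12%, 6.25% and 0.718% of all promoters. A match describes the letters of this window only, and whether any protein binds there was not measured.

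The arrays used 1 colour (Cy3), and the authors deposited the brightness of each spot after background subtraction and spatial detrending. Signals are given here on that scale, and as log2 values relative to the 75th percentile of the array, which was 1161 for Baf53a- and 1128 for Baf53b-expressing cells. Both arrays gave usable spots for 39411 probes, of which 29247 were flagged as well above background in both conditions. The label check rested on the probe of Actl6b, which encodes Baf53b. In Baf53a-expressing cells it did not stand well above background, and the Baf53b array was at least 14.5-fold higher, a bound against the lowest signal well above background. Actl6a, which encodes Baf53a, differed by -0.038 on the log2 scale and did not tell the 2 conditions apart. Whether its probe reads the vector was not examined. No p-value is given anywhere, because 1 array per condition leaves no spread between replicates, and precision is limited by the 2 arrays. In these bulk samples, fewer cells that express a gene and less RNA per cell cannot be told apart.

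Of the 14 probes for streak and early mesoderm genes, 11 were well above background on both arrays, and they covered 8 of the 10 genes. The other 3, the probes of Mixl1 and Foxf1 and 1 of the 3 probes of Fgf8, were not well above background on either array. No member probe was seen on 1 array only, 0 of their spots were saturated and 0 carried an outlier flag. None of the 11 measured probes was 2-fold apart, 0 in either direction. Of all 29247 probes measured in the same way, 0.137% reached that threshold as higher in Baf53b-expressing cells and 0.116% as lower, and the members' count of 0 is near this background. These shares stand for 40 higher and 34 lower probes, which became 32 and 53 under quantile normalization, 36 and 46 under cyclic loess and 0 and 2 under normexp.

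**Figure D1:**
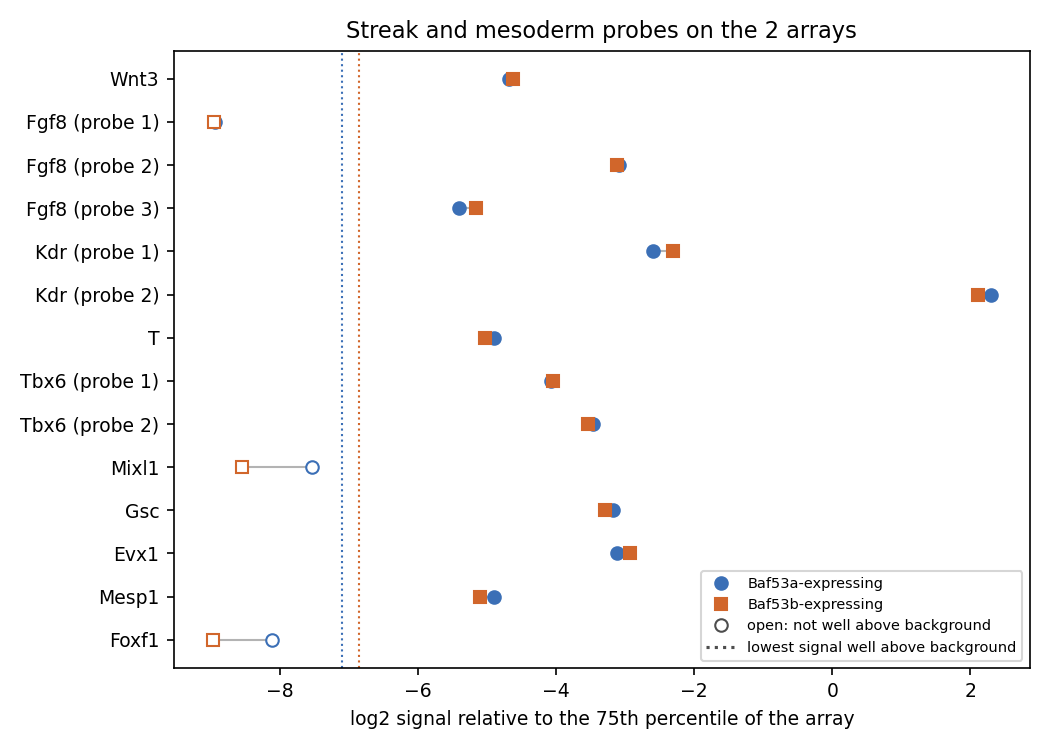
Log2 signal of each of the 14 probes relative to the 75th percentile of its array (x axis), with circles for Baf53a- and squares for Baf53b-expressing cells (1 array each). Open symbols are probes not well above background, and dotted lines mark the lowest signal that was well above background on each array; the 11 filled pairs lie within 0.29 of each other.

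Wnt3, the ligand without which no streak forms in the mouse embryo, gave a signal of 45.4 in Baf53a- and 45.8 in Baf53b-expressing cells, a log2 difference of 0.057 after scaling. The error model of the extraction software put the error of this difference at 0.226. The signals of the 2 arrays were thus closer to each other than the stated error of a single spot pair, and the sign turned under quantile normalization (-0.027) and cyclic loess (-0.036).

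Fgf8, which mesoderm cells need to move away from the streak, was covered by 3 probes. The brighter of the measured pair gave 136 and 130 in Baf53a- and Baf53b-expressing cells, a log2 difference of -0.023 with an error of 0.208. The dimmer gave 27.3 and 31.6, a difference of 0.25 with an error of 0.247. The third probe stood at 2.38 and 2.28 and was not well above background on either array. The measured probes of Fgf8 therefore pointed in opposite directions, 0.28 apart on the log2 scale, and neither reached 2-fold.

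Kdr encodes the VEGF receptor Flk1, which marks the mesoderm that gives rise to blood and vessels. It is the member with the most repeated measurement, since 1 of its probes was printed as 10 spots on each array. In Baf53a-expressing cells these spots ran from 176 through a median of 191 to 203, and in Baf53b-expressing cells from 209 through 231 to 240. All 10 spots of the Baf53b array were above all 10 of the Baf53a array. On the log2 scale the means were -2.60 ± 0.066 and -2.31 ± 0.065 (SD over 10 spots of 1 array), a difference of 0.29 or 1.22-fold. Spots of 1 array are repeats of the same labelled RNA and not replicates of the cells. Of the 324 probes printed as 10 spots and measured on both arrays, 20.7% had no overlap between the arrays, 33 of them higher and 34 lower in Baf53b-expressing cells, so that a separation of this kind was common.

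The second Kdr probe, with 1 spot per array, went the other way. It read 5703 in Baf53a- and 4887 in Baf53b-expressing cells, a log2 difference of -0.18 with a software error of 0.204. On the Baf53a array the first probe was far dimmer, with a median of 191. The log2 differences of the 2 Kdr probes lay 0.47 apart, a gap reached by 4.58% of the 4212 genes with several measured probes, whose median gap was 0.11. Probes with opposite signs were found in 40.2% of these genes. Both Kdr probes kept their signs under quantile normalization, median centring, cyclic loess and normexp. Over all 7 scalings and value sources they ran from 0.24 to 0.29 for the first and from -0.23 to -0.14 for the second. Their mean, 0.054, describes neither. Which transcripts each probe reads was not examined here.

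**Figure D2:**
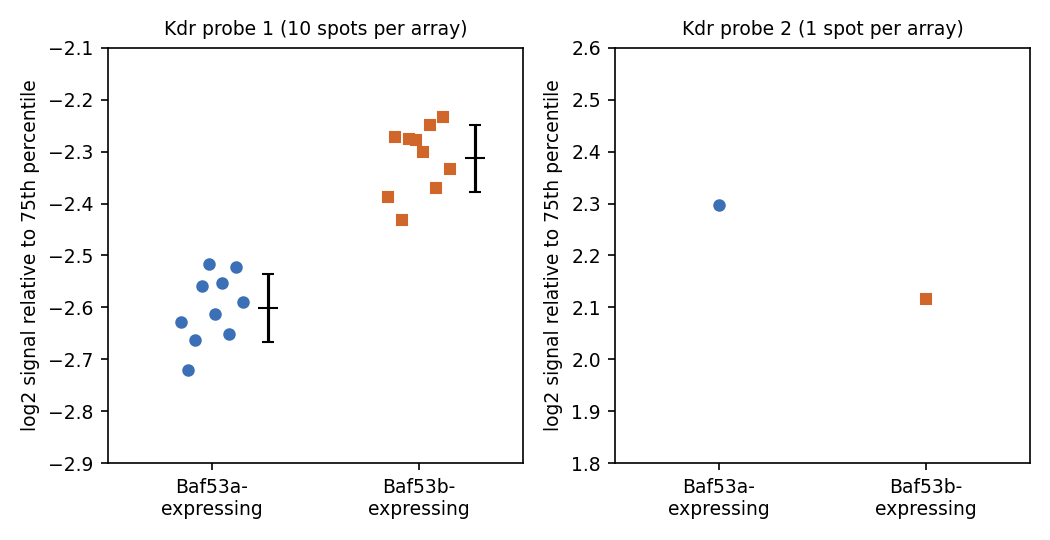
Log2 signal of Kdr relative to the 75th percentile of the array (y axes, both spanning 0.8) for the probe of 10 spots (left) and the probe of 1 spot (right), by condition. Points are spots of 1 array per condition, and black bars are the mean ± SD over the 10 spots; the first probe is higher and the second lower in Baf53b-expressing cells.

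T (Brachyury), the T-box factor that defines the streak and later the notochord, gave 38.8 with Baf53a and 34.5 with Baf53b. The log2 difference was -0.13 with an error of 0.238. Probes of the same brightness group, the dimmest of 5 groups of equal size, had a median difference of 0.098 and an SD of 0.324. T thus lay within 1 SD of that median, and background correction by normexp turned its sign (0.0069). Tbx6, a T-box factor of the paraxial mesoderm that represses the neural fate there, gave 68.7 and 68.7 with its first probe and 105 and 96.7 with its second. Its differences were 0.042 and -0.083, both smaller than their errors of 0.213 and 0.210. The first turned under quantile normalization (-0.029), cyclic loess (-0.036) and median centring (-0.0091).

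Mesp1, the helix-loop-helix factor of the earliest mesoderm, including the precursors of the heart, had the lowest difference of the 11 probes. Its signal was 39.0 on the Baf53a array and 32.8 on the Baf53b array, a log2 difference of -0.21 with an error of 0.233, or 1.15-fold lower. It also lay within 1 SD of the median of its brightness group. The sign was not stable, with -0.31 under cyclic loess and 0.015 under normexp. In the main setting T and Mesp1 were both lower in Baf53b-expressing cells by less than the spread of probes as dim as theirs. Under normexp both were slightly higher, so they share no settled direction.

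Gsc, the homeobox gene of the anterior streak and organizer, gave 128 and 115 in Baf53a- and Baf53b-expressing cells, a log2 difference of -0.12 with an error of 0.208. Evx1, a homeobox gene of the posterior streak, gave 133 and 149, a difference of 0.20 with an error of 0.207. Evx1 was the highest of the 8 genes when probes were averaged per gene. Gsc and Evx1 thus differed in opposite directions, each by less than the error of its spot pair. Each kept its sign under quantile normalization, median centring, cyclic loess and normexp. They are single genes and do not describe the anterior and the posterior streak as such.

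Mixl1, a homeobox factor of the mesendoderm that lies downstream of Nodal, was dim on both arrays. Its spot read 6.24 in Baf53a- and 3.0 in Baf53b-expressing cells, under the lowest signals flagged as well above background, 8.45 and 9.75. Both spots carried the weaker flag of a positive and significant signal. Read at face value they differ by -1.01 on the log2 scale, but the software error of that difference was 1.27, and no fold is given for 2 signals below the limit. Foxf1, a forkhead factor of the lateral plate and extraembryonic mesoderm, read 4.19 and 2.25 and was likewise not well above background. These values bound both transcripts as dim in both conditions and do not order them.

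As a group, the 11 measured probes showed no common direction before brightness was considered. In Baf53b-expressing cells 5 were higher and 6 lower, with differences from -0.21 to 0.29, a median of -0.023 and an SD of 0.174. The median over all 29247 probes was -0.0013 and their SD 0.206. Most members were dim, and in the 2 dimmest of the 5 brightness groups 64.6% and 61.4% of all probes were higher. The median differences of these groups were 0.098 and 0.054. Less the median of their own group, the members ran from -0.30 (Mesp1) to 0.27 (the Kdr probe of 10 spots). Most of them lay below that median, and this lean was not tested. A difference no larger than that of the farthest member was found for 88.0% of all probes. Averaged per gene, 4 of the 8 measured genes were higher and 4 lower, with a median of 0.017, against -0.0032 over 16608 genes. This median turned negative under quantile normalization, median centring and cyclic loess, so it has no settled sign. With median centring the median over all genes fell as well, to -0.054. Against the software error, 9 of the 11 differences were smaller than 1 error and all 11 smaller than 2 errors. The exceptions to the first were the Kdr probe of 10 spots and the dimmer Fgf8 probe. For that Kdr probe the error is that of a single spot pair, although its value is a mean over 10 spots. Against the spread of all probes of like brightness, 9 of the 11 lay within 1 SD of the median of their group, and the exceptions were both probes of Kdr.

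**Figure D3:**
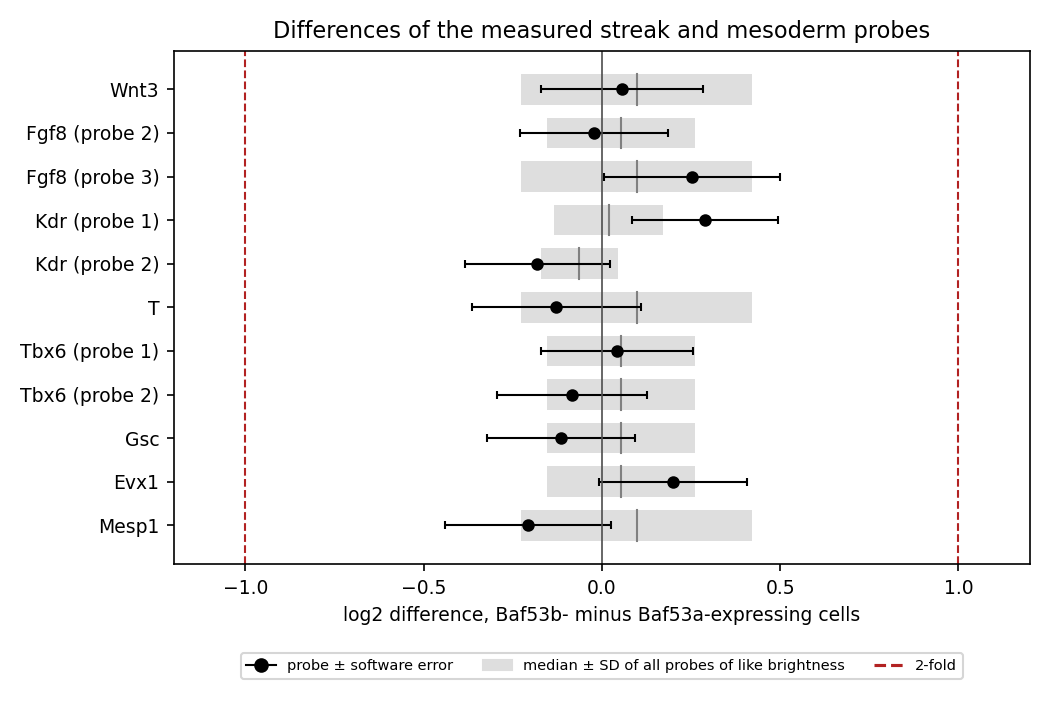
Log2 difference, Baf53b- minus Baf53a-expressing cells (x axis), of the 11 measured probes, with bars for the error given by the extraction software. The error of the Kdr probe of 10 spots is that of a single spot pair. Grey bands are the median ± SD of all probes in the same of 5 brightness groups, and dashed lines mark 2-fold; all points lie between -0.21 and 0.29.

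Most members were dim. Of the 11 measured probes, 4 lay in the dimmest of the 5 brightness groups and 5 in the next, where the SD of the differences over all probes was 0.324 and 0.208. There the precision of single spots was lowest, with a spot SD of a difference of 0.274 and 0.119 estimated from 51 and 60 probes of 10 spots. The median difference of all probes was 0.098 in the dimmest and -0.063 in the brightest group, and 64.6% and 24.2% of their probes were higher in Baf53b-expressing cells. A small rise of a dim probe was therefore the usual case on these arrays.

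The other genes of the streak and of the mesoderm that follows it were taken from 5 lists with 72 genes. Of these, 67 were measured, 38 higher and 29 lower in Baf53b-expressing cells, with a median of 0.0059. None of the 67 genes and none of their 85 probes was 2-fold apart. Wnt3a, Cer1, Msgn1, Osr1 and Fli1 had no probe well above background on both arrays. Of them Msgn1, a factor of presomitic mesoderm, was flagged as well above background on the Baf53b array alone. Its log2 signal was -6.60 on the Baf53a array and -6.44 on the Baf53b array, an observed difference of 0.16. No bound is given for Msgn1, since its Baf53a signal exceeded the lowest one so flagged on that array, -7.10. A probe of Nkx1-2, a homeobox gene of the caudal epiblast, was likewise flagged on the Baf53b array alone, brighter there by 1.44-fold or more. The 2 measured probes of Nkx1-2 gave -0.12 and -0.069.

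Among the ligands, receptors and transducers that induce the streak, 9 of 17 genes were higher and 8 lower, with a median of 0.0029. The lowest was Gdf3, a ligand of the Nodal type that ES cells express, at -0.24 with -0.28 and -0.21 from its 2 probes, and the highest was the activin receptor gene Acvr1b at 0.21. The ligand Nodal itself differed by -0.052 and its co-receptor Tdgf1 by -0.016, a mean over 3 probes. Other genes of the streak and its organizer gave 8 higher and 6 lower with a median of 0.041. Foxa2, a forkhead factor shared by definitive and primitive endoderm, was the highest at 0.31, with 0.29 and 0.34 from its 2 probes. Sp8 was the lowest at -0.19, and Eomes, a T-box factor of the streak and of trophoblast, gave 0.25. With arrays centred on the median, the medians of these streak lists turned to -0.048 and -0.010. The median over all genes fell with them, from -0.0032 to -0.054.

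In the paraxial mesoderm list 5 of 12 genes were higher and 7 lower, with a median of -0.059. The list held the extremes of all 5 in the related forkhead genes Foxc1 (0.87) and Foxc2 (-0.45), each read by 1 probe. Foxc1 lay in the dimmest brightness group, and under normexp its difference was 0.15. Lateral and cardiac mesoderm genes gave 7 higher and 3 lower of 10, with a median of 0.11, from Nkx2-5 at -0.22 to Tbx20 at 0.41. Blood and endothelial genes gave 9 higher and 5 lower of 14, with a median of 0.074. Tie1, an endothelial receptor gene, was the highest at 0.56, from 1 probe in the dimmest brightness group. Etv2, which acts above Kdr-positive blood and vessel precursors, was the lowest at -0.25, with -0.26 and -0.24 from its 2 probes.

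**Figure D4:**
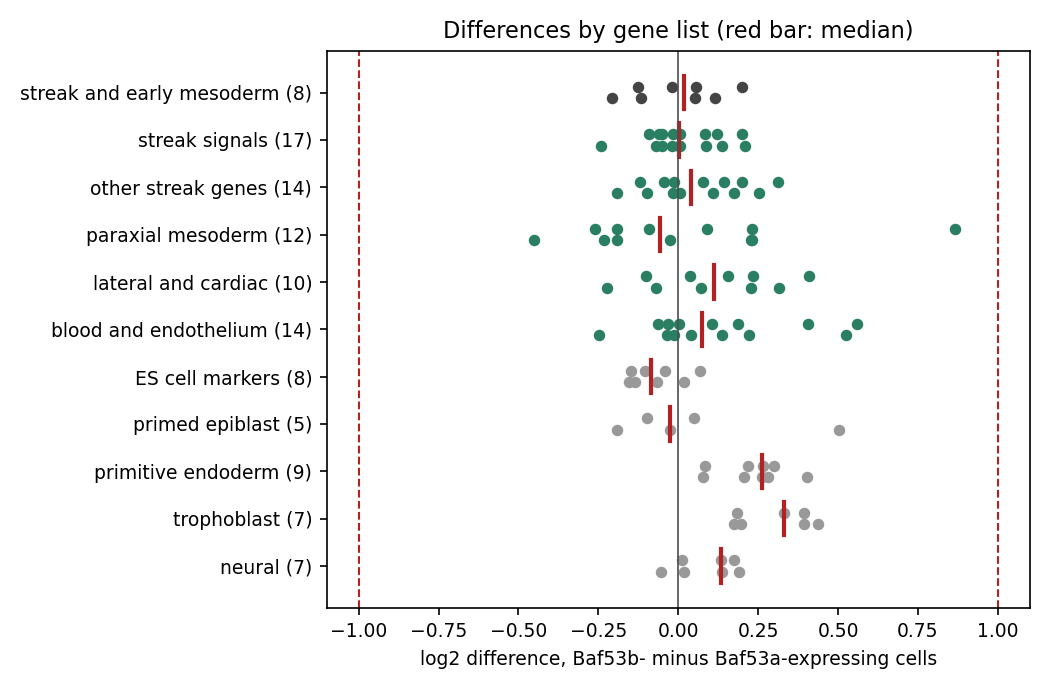
Log2 difference, Baf53b- minus Baf53a-expressing cells (x axis), for each measured gene of the streak and early mesoderm set, of 5 further mesoderm lists and of 5 lists of cell type markers, with the number of genes in brackets. Red bars are medians and dashed lines mark 2-fold; no gene reaches 2-fold, and the primitive endoderm and trophoblast markers lie entirely above 0.

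Markers of the cell types that such cultures can hold were set beside the streak genes. The ES cell markers were measured in full, 8 of 8, with 2 higher and 6 lower in Baf53b-expressing cells, between -0.15 and 0.068. All but Nanog lay in the brightest of the 5 brightness groups. In that group 24.2% of all probes were higher and the median difference was -0.063, so the markers' count is near this background. The summed signal of the ES cell markers was 381573 on the Baf53a array and 356136 on the Baf53b array, with Pou5f1 (Oct3/4) at -0.13 and Nanog at -0.065. The markers of the primed epiblast, the tissue that enters the streak, gave 2 higher and 3 lower of 5, with a median of -0.027 and summed signals of 21525 and 21705. Its Fgf5 stood apart at 0.50, from 1 probe in the group next to the dimmest, where the SD over all probes was 0.208.

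Markers of primitive endoderm were higher in Baf53b-expressing cells in 9 of 9 measured genes, from 0.077 to 0.40 with a median of 0.26, and Ttr was not measured. Their summed signal was 35211 on the Baf53a and 41814 on the Baf53b array. That sum was carried mostly by Lama1 and Lamb1, whose log2 signals on the Baf53a array were 4.24 and 3.20, against -1.88 for Gata4. Gata4, Gata6 and Sox17 gave 0.22, 0.21 and 0.27. Trophoblast markers were higher in 7 of 7, from 0.17 to 0.44, with summed signals of 9652 and 11540, and Elf5 was not measured. Both counts were the same under quantile normalization, median centring, cyclic loess and normexp. In the main setting 49.1% of all 16608 measured genes were higher. Neural markers were higher in 6 of 7 with a median of 0.13, and in 4 of 7 under quantile normalization, median centring and cyclic loess. All neural markers but Nes lay in the 3 dimmest brightness groups, where 64.6%, 61.4% and 55.5% of all probes were higher. None of these genes reached 2-fold. Foxa2 (0.31) and Pdgfra (0.32) of the mesoderm lists are also expressed in primitive endoderm, and Eomes (0.25) and Hand1 (0.15) in trophoblast. Pdgfra, Eomes and Hand1 were picked after their values were seen and do not stand for the lists. The lists together gave 38 genes higher and 29 lower. The part of these cell types in the values of the mesoderm lists was not tested.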

How the data were processed

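Total RNA of 2 samples, 1 per condition, was labelled with Cy3 and hybridised to Agilent mouse arrays. Per the file headers and the methods, the authors extracted the scans with Feature Extraction 11.0.1.1 on a design annotated on mm9 and deposited the intensity of each spot, without normalization between arrays. The authors also deposited 1 ratio per probe, for 30488 probes; set against the spots, each of 30479 compared equalled the processed signal over 1 number per array (1160 and 1126) within 0.1%, and the step is not given in the sources used here.

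Control spots and outlier spots were left out, log2 signals were averaged per probe, and each array was set to 0 at its 75th percentile. A probe was measured when at least 50% of its spots were flagged well above background on both arrays. Genes are means over measured probes. Symbols came from RefSeq accessions in a GRCm38.p6 gene table, used for names only. The threshold was 2-fold, with no test. Python 3.11.15, numpy 2.4.6, pandas 2.3.3, R 4.3.3 and limma 3.58.1 were used. The scaling and the 2-fold count were tried on simulated data with planted changes well above 2-fold. That trial does not bear on differences as small as those of the members.

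The members and lists were chosen with earlier results of these data known. By rule, named genes are the members, the highest and lowest gene of each of the 5 mesoderm lists, any gene there at least 2-fold apart, Actl6a, Actl6b and 5 markers (Pou5f1, Nanog, Gata4, Gata6 and Sox17). Nodal, Tdgf1, Eomes, Fgf5, Pdgfra, Hand1, Lama1 and Lamb1 were added after their values were seen. So were the genes not measured, the probe of Nkx1-2 and the gene families. Alternatives were quantile, median and cyclic loess scaling, normexp with an offset of 50, other filters and flags, the brightest probe per gene and the authors' ratios. The 2 samples are 1 RNA pair with no replicates.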

Additional observations from a re-analysis of the deposited data

How the results depend on the processing

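No paired analysis was possible because each condition had a single array, which also leaves no replicate to omit. Normexp took the median pixel signal of each spot. The count of 0 member probes at least 2-fold apart was the same under every scaling, with outlier spots kept, with the authors' ratios and under a stricter filter, which left 5 of the 11 probes measured. It became 1 without a filter and 1 with a weaker detection flag, in both the probe of Mixl1. The median of the member genes, 0.017, was -0.055 under quantile normalization, -0.034 with median centring, -0.064 under cyclic loess, -0.068 without a filter and -0.099 with the brightest probe of each gene. Left out after seeing the data, the Kdr probe of 10 spots took it to -0.068. The median of the other streak and mesoderm genes, 0.0059, was -0.045 with median centring, 0.061 under normexp and 0.040 with the weaker flag. Median centring moved all probes alike and took the median over all genes to -0.054. Over all probes, the 74 at least 2-fold apart became 2 under normexp, 2 under the stricter filter, 754 with the weaker flag and 1337 without a filter. The stricter filter left 19463 of the 29247 probes, while the weaker flag took 33611 and no filter 39411. For the other values the cause was not tested. Of the 11 member probes, 7 kept their sign over 7 scalings and value sources and 4 did not, those of T, Mesp1 and Wnt3 and the first of Tbx6. Among the 7 were the main setting, outlier spots kept and the authors' ratios, which could hardly differ from each other. No member spot carried an outlier flag, and the ratios are the processed signal over 1 number per array. Signal over background limits Mixl1 and Foxf1, for which no direction can be given.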

Other observations

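The families to which the streak genes belong were counted after the data had been seen, by gene symbol. Of 17 T-box genes on the array 16 were measured, 9 higher and 7 lower in Baf53b-expressing cells, from Tbr1 at -0.36 to Tbx5 at 0.68, each read by 1 probe in the dimmest of the 5 brightness groups. Of 44 forkhead genes 37 were measured, 20 higher and 17 lower, with a median of 0.0041 that was negative under quantile normalization (-0.034) and cyclic loess (-0.038) and with arrays centred on the median (-0.047). Of 19 Wnt ligands 16 were measured, 10 higher and 6 lower, and under quantile normalization 6 were higher. Secreted Fgf ligands, counted without the intracellular Fgf11 to Fgf14, were measured in 16 of 18, 13 higher and 3 lower with a median of 0.11, from Fgf4 at -0.092 to Fgf6 at 0.80, the latter from 1 probe in the dimmest group. None of these genes was 2-fold apart.

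The counts moved with the scaling. Higher T-box genes numbered 9 of 16 under quantile normalization and cyclic loess, 8 with arrays centred on the median and 12 under normexp. Higher Fgf ligands numbered 11 of 16 under quantile normalization, 12 under cyclic loess, 13 with median centring and 14 under normexp. Over all 16608 measured genes 49.1% were higher, and among probes of the dimmest group 64.6%. Whether the families differ from each other or from other genes was not tested, and with 1 array per condition the counts have no replicate check.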
